A study of Homo sapiens with 24 samples.

Results

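ATF4 is the transcription factor at the centre of the integrated stress response, and the genes described here are ATF4, its partner and related factors, and genes of amino acid transport, serine synthesis and folate metabolism, many of them known ATF4 targets. The set was given as 39 gene symbols, and 38 of them were among the 13033 genes of the table. The symbols were chosen with earlier results of these data known. Shares of all genes are therefore set beside the counts for description and are no independent test. NUPR1, a small stress-induced transcriptional co-regulator, was not analysed here. The genes were followed in poly(A) RNA of 2 human acute myeloid leukaemia cell lines to ask which of them part between the lines after 24 h of RAS inhibition. OCI-AML3 (OCIAML-3 in the labels) carries NRAS Q61L, an activating RAS mutation. Molm-14 carries FLT3-ITD, an internal tandem duplication in a receptor tyrosine kinase that signals through RAS. The groups of each line were RMC-7977 at 25 nM for 24 h, RMC-7977 at 25 nM for 2 h, and DMSO, the solvent. RMC-7977 is an inhibitor that binds RAS proteins in their active, GTP-loaded form. Both lines were grown in RPMI with serum, and each genotype is represented by 1 line, so effects of genotype and of line cannot be told apart.

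In the integrated stress response, kinases that sense amino acid shortage, misfolded protein in the endoplasmic reticulum, viral RNA or haem shortage phosphorylate the translation factor eIF2. Most translation then slows, while the ATF4 messenger is translated through its upstream open reading frames, so that ATF4 protein is set largely by translation and its mRNA level is only a part of the control. ATF4 pairs with C/EBP factors, binds C/EBP-ATF composite elements in amino acid response genes, and raises transporters, amino acid enzymes and tRNA synthetases. In leukaemia cells these genes supply serine, glycine and folate-bound carbon units for nucleotide synthesis and cysteine for glutathione.

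Levels are given as CPM, read counts scaled to a common library size, on a linear scale obtained from the deposited log2 CPM. Changes are log2 fold changes ± SE from 1 limma fit over all genes and 23 libraries, and p-values were adjusted over 13033 genes. A gene was called, and is said to have risen or fallen, where the adjusted p was under 0.05 and the fold change was 1 log2 unit or more in either direction. The difference in response is the log2 fold change of OCI-AML3 minus that of Molm-14. Whether replicates were grown apart is not stated in the labels, so the spread between libraries behind each p-value may be technical. Groups held 4 libraries, except OCI-AML3 at 24 h with n = 3, where replicate 3 was not analysed here. Each line had 1 DMSO group with no stated time, so its 24 h and 2 h comparisons share the same DMSO libraries. With that time unknown, effects of RMC-7977 and of time in culture cannot be told apart. Effective library sizes were 15.4 to 22.4 M reads. Of 8 myeloid markers all were measured, while none of 4 T lymphoid and none of 5 erythroid and platelet markers was in the table. The summed myeloid markers reached 5524 to 5814 CPM in OCI-AML3 at 24 h, against 1731 to 1907 CPM in its DMSO libraries, and 1103 to 1188 CPM in Molm-14 at 24 h, against 849 to 921 CPM in DMSO. At 24 h most of the OCI-AML3 sum was LYZ, at a mean of 3792 CPM against 574 CPM in DMSO. CSF1R had a mean of 172.5 CPM at 24 h against 13.1 CPM in DMSO in OCI-AML3, and 88.0 CPM against 6.97 CPM in Molm-14. For ITGAM the means were 9.66 CPM against 2.76 CPM in OCI-AML3 and 34.1 CPM against 5.91 CPM in Molm-14. CD33, SPI1 and CEBPA were also higher on average at 24 h in both lines. CD14 had a mean of 0.216 CPM at 24 h against 3.29 CPM in DMSO in OCI-AML3, and MPO was lower on average at 24 h in OCI-AML3 (1.82 CPM against 2.57 CPM in DMSO) and in Molm-14 (0.604 CPM against 2.83 CPM in DMSO). The B-cell factor PAX5, 1 of 4 B lymphoid markers and the one measured, stood at 0.321 to 0.669 CPM in OCI-AML3 at 24 h, against 0.204 to 0.324 CPM in DMSO, and at 8.17 to 8.60 CPM in Molm-14 at 24 h, against 17.9 to 22.1 CPM in DMSO. Of 6 epithelial and stromal markers, KRT18 and COL1A2 were measured, and their sum was 1.12 to 9.76 CPM over all libraries. The part of these shifts in the changes below was not tested. In such bulk RNA, fewer cells of a type and less RNA per cell cannot be told apart.

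The C/EBP-ATF composite element is the DNA site through which ATF4 is known to act, so it was searched as TGATGNAA, on both strands, in 300-base RefSeq windows around annotated starts (GRCh38.p14). A match was in 3.62% of all 35116 windows and in 2.76% of the 10440 genes of the table that had a window. Of the 30 members with a window, 9 (30.0%) held a match: ASNS, ATF3, CEBPG, CHAC1, GOT1, JDP2, MTHFD1L, SLC3A2 and SLC7A1. No window was at hand for ALDH1L2, GPT2, INHBE, PSPH, PYCR1, SHMT2, SLC7A11 and VEGFA. Those genes were not searched, and whether they hold a match is not known here. All 30 members with a window had 49 windows between them, and the whole set of 35116 windows belonged to 27305 genes. A gene with more windows has more chances of a match. Windows of the 10440 genes were not counted, so 30.0% and 2.76% are given side by side only. The 5 matches below belong to members whose levels are given library by library, and they are shown to put the site beside those values. Each stretch is written 5′ to 3′ on the strand of its gene, and the capitals mark the match.
ASNS: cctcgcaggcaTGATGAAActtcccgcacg
ATF3: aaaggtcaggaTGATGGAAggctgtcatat
CHAC1: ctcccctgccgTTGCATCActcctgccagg
JDP2: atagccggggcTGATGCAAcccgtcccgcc
MTHFD1L: gccgccggctcTGATGCAAtcgcgccgggc
The ASNS stretch is chr7:97872458-97872487, minus strand, and its match begins 68 bases before an annotated start. That of ATF3 is chr1:212565205-212565234, plus strand, 191 bases before a start. The CHAC1 match, at chr15:40953251-40953280 on the plus strand, lies 209 bases before a start and reads as TGATGCAA on the other strand. The JDP2 stretch is chr14:75427995-75428024, plus strand, 16 bases before a start. For MTHFD1L, at chr6:150866346-150866375 on the plus strand, the match begins 24 bases after a start. Among these 5 genes, the difference in response ran from -1.98 for MTHFD1L to 3.73 for CHAC1. Members given library by library were partly picked for a large difference, so this range is not a trait of the site. The other members with a match stood at 0.48 (CEBPG), 0.18 (GOT1), 0.13 (SLC3A2) and -0.28 (SLC7A1). A match describes letters in a window and does not show binding.

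At 24 h most of these genes were lower in both lines. In OCI-AML3, 22 of 38 fell and 6 rose, where 17.1% of all genes fell and 18.4% rose. In Molm-14, 30 fell and none rose, where 6.57% of all genes fell and 11.4% rose. The median log2 fold change of the members was -1.34 in OCI-AML3 and -1.51 in Molm-14, beside 0.012 and 0 over all genes. Every 24 h library lay below every DMSO library for 25 members in OCI-AML3 and 34 in Molm-14, where 41.0% of all genes in OCI-AML3 and 36.6% in Molm-14 did so. Every 24 h library lay above every DMSO library for 9 members in OCI-AML3 and 2 in Molm-14, where 41.3% and 34.7% of all genes did so. The fall in both lines was shared by 20 members, and 5.61% of all genes did the same. These 20 were 90.9% of the members that fell in OCI-AML3 and 66.7% of those that fell in Molm-14. Over all genes, those that fell in both lines were 32.8% of the falls in OCI-AML3 and 85.4% of the falls in Molm-14.

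The other members were called in opposite directions, in 1 line or in neither. CEBPB, CTH and SLC7A11 rose in OCI-AML3 and fell in Molm-14, a pattern held by 10 of all 13033 genes (0.0767%). DDIT3, JDP2, CHAC1, SESN2, INHBE, PSPH and MTHFD2 were not called in OCI-AML3 and fell in Molm-14, as did 0.882% of all genes. PPP1R15A, VEGFA and VLDLR rose in OCI-AML3 and were not called in Molm-14 (10.5% of all genes). ATF3 and SHMT1 fell in OCI-AML3 and were not called in Molm-14 (11.3% of all genes). No member rose in both lines, as 7.82% of all genes did, and none rose in Molm-14 without a call in OCI-AML3, as 3.31% of all genes did. ATF4, CEBPG and DDIT4 were called in neither line, as were 60.4% of all genes. A call in 1 line alone does not show that the lines differ. In the test of the difference in response itself, 10 members were called higher in OCI-AML3 and 7 lower, where 8.09% of all genes were higher and 9.75% lower (17.8% in either direction). The higher 10 were SLC7A11, CHAC1, INHBE, CTH, CEBPB, JDP2, SESN2, VEGFA, ASNS and DDIT3. INHBE had 5 reads or fewer in each OCI-AML3 group, so no response could be read in that line and its call is no evidence of a difference in response. The lower 7 were SLC7A5, MTHFD1L, PSAT1, PHGDH, PYCR1, SHMT1 and MTHFD1.

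**Figure D1:**
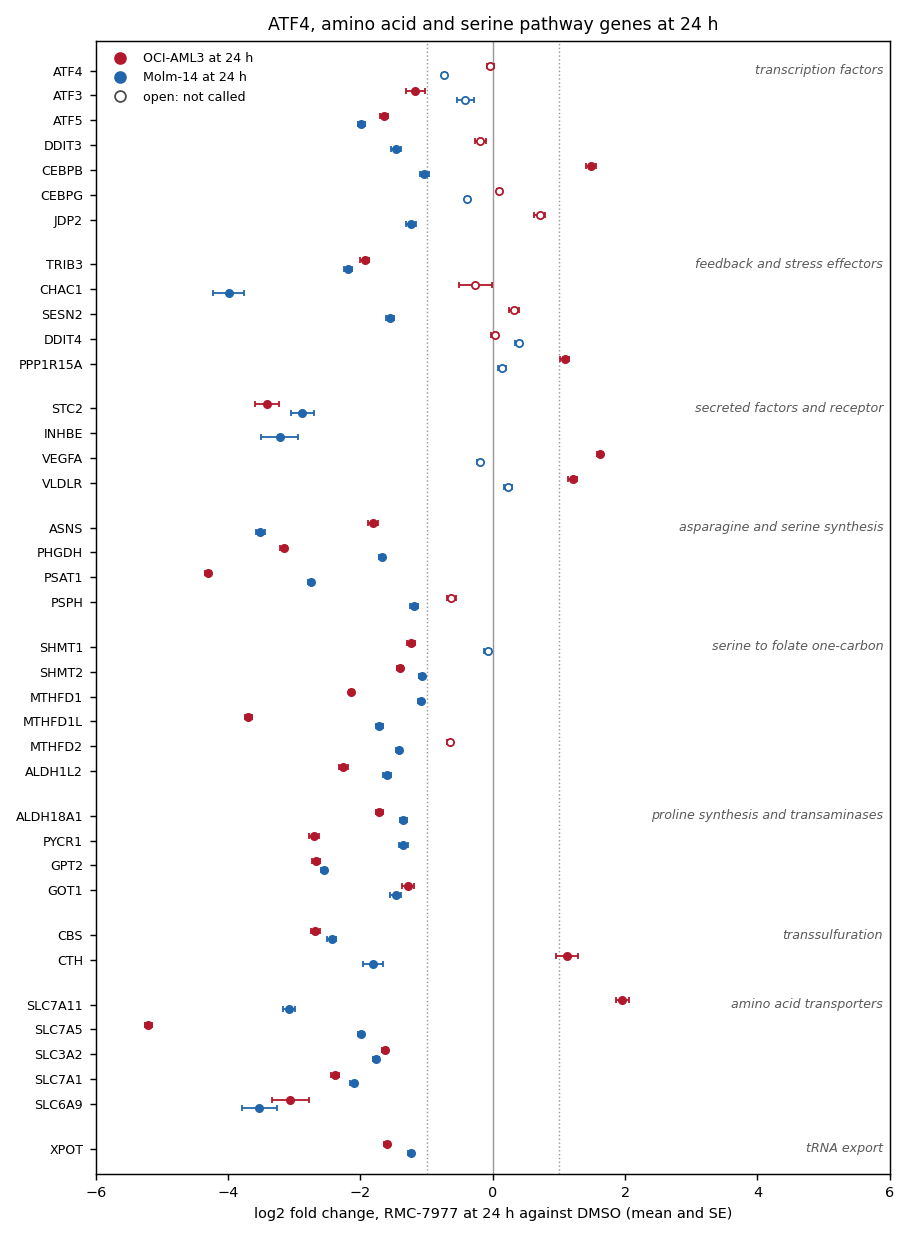
Log2 fold change of each member at 24 h against DMSO (x axis, mean and SE) by role, with OCI-AML3 in red and Molm-14 in blue, filled where called and dotted lines at the threshold of 1; INHBE in OCI-AML3, with few reads, is left out. Every called Molm-14 point lies below 0, while 6 red points lie beyond the upper threshold.

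**Figure D2:**
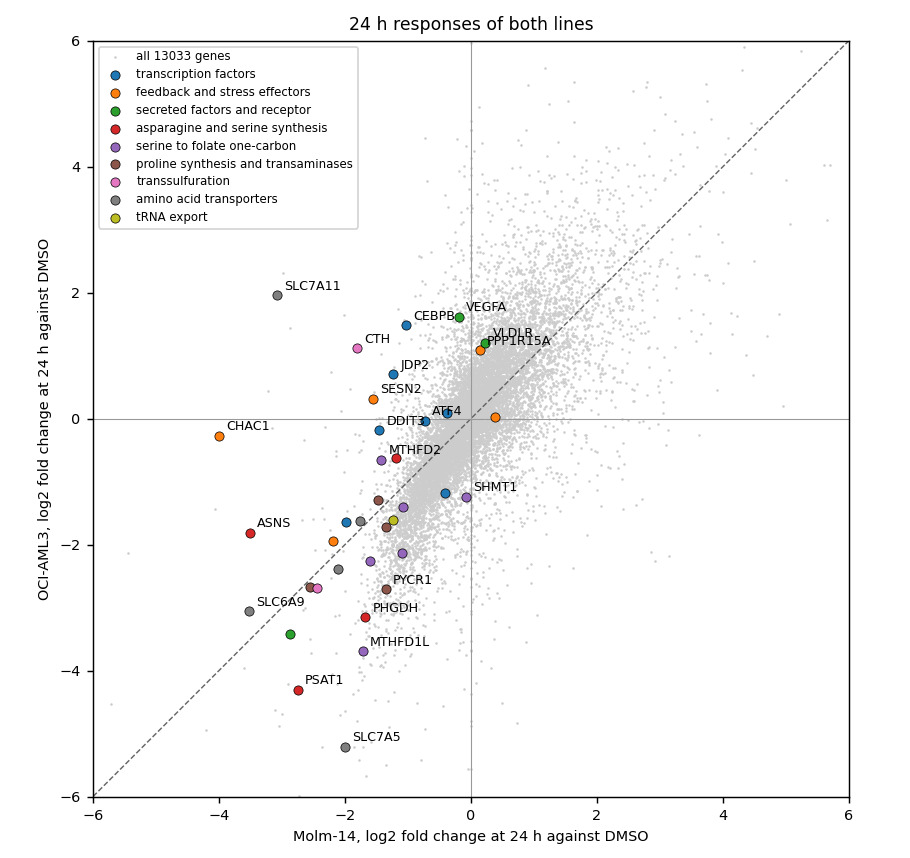
Log2 fold change at 24 h in OCI-AML3 (y axis) against Molm-14 (x axis) for all 13033 genes in grey and the members coloured by role, with the line of equal response dashed; 10 genes lie beyond the axes, INHBE is left out, and each axis shares the DMSO libraries of its line. SLC7A11, CTH and CEBPB lie at the upper left and SLC7A5 far below the dashed line.

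Of the 7 transcription factors, 2 fell and 1 rose in OCI-AML3, while 4 fell in Molm-14. Counts by role, here and below, stand beside 35.4% of all genes called in either direction in OCI-AML3 and 17.9% in Molm-14. With so few genes per role, these counts are descriptive only. ATF4 (chr22:39519695-39522685, plus strand) was not called in either line. Positions of whole genes are those of GENCODE 29 on GRCh38. In OCI-AML3, ATF4 stood at 279.6, 247 and 267 CPM at 24 h, 235, 229, 224 and 236 CPM at 2 h and 276, 264, 292 and 252 CPM in DMSO. In Molm-14, ATF4 stood at 367, 370.2, 371 and 354 CPM at 24 h, 471, 483, 499.6 and 497 CPM at 2 h and 631, 608, 579.6 and 612 CPM in DMSO. In OCI-AML3 the libraries at 24 h overlapped DMSO, and in Molm-14 all of them lay below DMSO. The log2 fold change of ATF4 in OCI-AML3 was -0.035 ± 0.046, adjusted p = 0.483, and its sign turned with another scaling of the libraries (0.14 with library totals, where the median of all genes stood at 0.18). The value in Molm-14 was -0.73 ± 0.042, adjusted p = 6.79e-16, short of the threshold on size. Between the lines the response differed by 0.70 ± 0.062, also below that threshold.

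DDIT3 encodes CHOP, the stress factor tied to cell death (chr12:57516588-57521737, minus strand). In OCI-AML3, DDIT3 stood at 11.99, 12.2 and 11.6 CPM at 24 h, 15.97, 14.2, 14.7 and 14.8 CPM at 2 h and 13.1, 12.9, 13.97 and 14.3 CPM in DMSO. In Molm-14, DDIT3 stood at 8.88, 8.53, 6.95 and 8.74 CPM at 24 h, 22.4, 23.4, 22.8 and 23.04 CPM at 2 h and 23.9, 19.6, 23.9 and 24.3 CPM in DMSO. Libraries at 24 h lay below DMSO in both lines, by a small margin in OCI-AML3, and those of Molm-14 were the lowest of all 6 groups. The log2 fold change of DDIT3 was -0.19 ± 0.084, adjusted p = 0.0403 in OCI-AML3, where it was not called, and it fell in Molm-14 (-1.46 ± 0.077, adjusted p = 8.63e-17). The lines differed in response (1.27 ± 0.11, adjusted p = 5.37e-11).

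CEBPB, a C/EBP factor of myeloid differentiation and a partner of ATF4 (chr20:50190734-50192689, plus strand), moved in opposite directions. In OCI-AML3, CEBPB stood at 256, 255 and 264 CPM at 24 h, 89.1, 89.4, 88.4 and 105 CPM at 2 h and 96.8, 88.6, 102 and 82.98 CPM in DMSO. In Molm-14, CEBPB stood at 21.9, 19.2, 20.1 and 20.1 CPM at 24 h, 44.2, 35.8, 37.9 and 36.8 CPM at 2 h and 44.7, 39.8, 40.3 and 42.1 CPM in DMSO. All OCI-AML3 libraries at 24 h lay far above their DMSO libraries, and all Molm-14 libraries at 24 h lay below theirs. CEBPB rose in OCI-AML3 (1.48 ± 0.072, adjusted p = 4.34e-18) and fell in Molm-14 (-1.03 ± 0.066, adjusted p = 8.59e-15). The call in Molm-14 ended with library totals (-0.94) and with median-of-ratios scaling (-0.97). For CEBPB the difference between the lines was 2.52 ± 0.098, adjusted p = 1.91e-19.

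JDP2 is a repressor of the AP-1 family (chr14:75427716-75474111, plus strand). In OCI-AML3, JDP2 stood at 36.04, 32.04 and 29.9 CPM at 24 h, 26.1, 26.4, 26.7 and 29.9 CPM at 2 h and 18.3, 20.5, 21.1 and 19.9 CPM in DMSO. In Molm-14, JDP2 stood at 8.31, 9.06, 9.34 and 7.47 CPM at 24 h, 25.1, 23.6, 23.02 and 23.9 CPM at 2 h and 19.1, 20.8, 21.8 and 18.97 CPM in DMSO. Libraries at 24 h lay above DMSO in OCI-AML3 and below DMSO in Molm-14. In DMSO the lines overlapped, and at 24 h every OCI-AML3 library was above every Molm-14 library. The log2 fold change of JDP2 was 0.71 ± 0.080, adjusted p = 2.08e-09 in OCI-AML3, under the threshold on size, and it fell in Molm-14 (-1.23 ± 0.074, adjusted p = 1.59e-15). For JDP2 the lines differed by 1.94 ± 0.11, adjusted p = 1.25e-15.

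ATF3, a stress-induced factor downstream of ATF4 (chr1:212565334-212620777, plus strand), was scarce in OCI-AML3. In OCI-AML3, ATF3 stood at 0.613, 0.641 and 0.688 CPM at 24 h, 1.17, 1.25, 0.979 and 1.46 CPM at 2 h and 1.23, 1.53, 1.92 and 1.78 CPM in DMSO. In Molm-14, ATF3 stood at 9.12, 8.89, 9.76 and 10.4 CPM at 24 h, 12.9, 11.4, 12.3 and 12.2 CPM at 2 h and 12.2, 11.5, 13.7 and 13.7 CPM in DMSO. Its libraries at 24 h lay below DMSO in both lines. ATF3 fell in OCI-AML3 (-1.17 ± 0.14, adjusted p = 1.08e-08), a call that rests on 35.4 reads summed over 3 libraries and 130 reads over 4 DMSO libraries, and that ended with a pseudocount of 1 CPM (-0.66). The log2 fold change in Molm-14 was -0.41 ± 0.13, adjusted p = 0.00619. The difference in response, -0.76 ± 0.20, was under the threshold on size. ATF5, a factor translated under stress as ATF4 is, fell in OCI-AML3 (-1.65 ± 0.063) and in Molm-14 (-1.99 ± 0.059), with a difference of 0.34 ± 0.086. CEBPG, a C/EBP partner of ATF4, had a log2 fold change of 0.096 ± 0.040 in OCI-AML3 and -0.39 ± 0.037 in Molm-14. ATF5 and DDIT3 overlap exons of genes on the opposite strand that are in the table (IL4I1 and NUP62 for ATF5, MBD6 for DDIT3), and no source used here gives the strand setting of the counting.

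Among the 5 feedback and stress effectors, 1 fell and 1 rose in OCI-AML3, while 3 fell in Molm-14. TRIB3, a pseudokinase that ATF4 induces and that restrains it (chr20:362835-397559, plus strand), fell in both lines. In OCI-AML3, TRIB3 stood at 9.23, 9.199 and 8.68 CPM at 24 h, 12.8, 11.9, 12.5 and 12.3 CPM at 2 h and 38.2, 33.9, 37.8 and 30.3 CPM in DMSO. In Molm-14, TRIB3 stood at 33.05, 34.97, 38.4 and 33.4 CPM at 24 h, 118, 108, 105 and 109 CPM at 2 h and 158, 173, 154 and 154 CPM in DMSO. Its libraries at 24 h lay below DMSO without overlap in both lines, and so did its libraries at 2 h. The changes at 24 h were -1.94 ± 0.068, adjusted p = 1.25e-21 in OCI-AML3 and -2.19 ± 0.063, adjusted p = 3.46e-23 in Molm-14. The difference in response was 0.26 ± 0.093, adjusted p = 0.0177, with a 95% interval of 0.065 to 0.45.

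CHAC1, which degrades glutathione (chr15:40952962-40956519, plus strand), showed the second largest difference in response of the set. In OCI-AML3, CHAC1 stood at 1.504, 0.908 and 1.604 CPM at 24 h, 1.17, 0.708, 1.44 and 1.3 CPM at 2 h and 1.84, 1.57, 1.43 and 1.54 CPM in DMSO. In Molm-14, CHAC1 stood at 0.729, 0.427, 1.47 and 0.633 CPM at 24 h, 10.3, 9.64, 9.902 and 7.88 CPM at 2 h and 12.4, 13.6, 14.3 and 13.3 CPM in DMSO. The OCI-AML3 groups overlapped each other, and the Molm-14 libraries at 24 h lay far below their DMSO libraries and overlapped those of OCI-AML3. For CHAC1 the log2 fold change was -0.27 ± 0.25, adjusted p = 0.316 in OCI-AML3, where it was not called, and it fell in Molm-14 (-3.99 ± 0.23, adjusted p = 6.71e-16). Between the lines its response differed by 3.73 ± 0.34, adjusted p = 7.73e-11. Summed reads at 24 h were 72.9 over 3 OCI-AML3 libraries and 62.9 over 4 Molm-14 libraries.

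SESN2, a leucine sensor that restrains mTORC1 (chr1:28259527-28282491, plus strand), also separated the lines. In OCI-AML3, SESN2 stood at 26.8, 29.3 and 24.6 CPM at 24 h, 22.9, 27.3, 24.7 and 27.5 CPM at 2 h and 21.3, 21.4, 23.3 and 20.1 CPM in DMSO. In Molm-14, SESN2 stood at 19.1, 19.96, 21.7 and 19.1 CPM at 24 h, 69.8, 61.3, 59.2 and 61.7 CPM at 2 h and 57.04, 62.8, 56.8 and 58.4 CPM in DMSO. Every OCI-AML3 library at 24 h lay above the DMSO libraries of that line, and every Molm-14 library at 24 h lay below those of its own. For SESN2 the log2 fold change was 0.32 ± 0.073, adjusted p = 0.000217 in OCI-AML3, where it was not called, and it fell in Molm-14 (-1.55 ± 0.067, adjusted p = 5.94e-19). Its difference in response was 1.87 ± 0.099, adjusted p = 3.07e-16. PPP1R15A, which encodes GADD34, the subunit that directs dephosphorylation of eIF2, rose in OCI-AML3 (1.09 ± 0.069, adjusted p = 3.89e-15) and had a log2 fold change of 0.14 ± 0.064, adjusted p = 0.0525 in Molm-14. Its difference in response was 0.95 ± 0.094, short of the threshold, and reached 1.03 with library totals. DDIT4, which encodes the mTORC1 inhibitor REDD1, had a log2 fold change of 0.027 ± 0.055 in OCI-AML3 and 0.39 ± 0.051 in Molm-14. Its level set the lines far apart, at 26.4 to 29.3 CPM in OCI-AML3 and 1071 to 1096 CPM in Molm-14 at 24 h.

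Of the 4 genes for secreted factors and a receptor, 2 rose and 1 fell in OCI-AML3, and 2 fell in Molm-14. INHBE, an activin subunit known as an ATF4 target (chr12:57452323-57459280, plus strand), was nearly absent from OCI-AML3. In OCI-AML3, INHBE stood at 0.0564, 0.0541 and 0.166 CPM at 24 h, 0, 0, 0 and 0.0556 CPM at 2 h and 0, 0.231, 0 and 0 CPM in DMSO. In Molm-14, INHBE stood at 1.05, 1.31, 1.23 and 1.72 CPM at 24 h, 14.7, 14.4, 14.03 and 15.2 CPM at 2 h and 12.2, 13.01, 13.9 and 13.1 CPM in DMSO. OCI-AML3 had 5 reads in all at 24 h, 1 at 2 h and 5 in DMSO, so no response could be read there. INHBE fell in Molm-14 (-3.22 ± 0.28, adjusted p = 1.12e-11). The fitted difference in response of 3.66 rests on the values of Molm-14, since a fall in OCI-AML3 could not have been seen. By summed reads per library size, the level in OCI-AML3 was below that of Molm-14 at every point, and the ratio of Molm-14 over OCI-AML3 was 14.4 (exact 95% interval 5.95 to 45.2) at 24 h and 209 (89.3 to 646) in DMSO. These intervals cover counting error only.

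VEGFA, the angiogenic growth factor (chr6:43770184-43786487, plus strand), was called in OCI-AML3 and not in Molm-14. In OCI-AML3, VEGFA stood at 120.2, 126 and 120.0 CPM at 24 h, 31.6, 31.2, 34.8 and 33.4 CPM at 2 h and 38.9, 40.2, 40.6 and 38.6 CPM in DMSO. In Molm-14, VEGFA stood at 196, 194, 186 and 171 CPM at 24 h, 168, 164, 166 and 165 CPM at 2 h and 217, 218, 208 and 208 CPM in DMSO. OCI-AML3 libraries at 24 h lay well above DMSO, while those of Molm-14 lay slightly below theirs. VEGFA rose in OCI-AML3 (1.62 ± 0.047, adjusted p = 7.51e-24), its value in Molm-14 was -0.19 ± 0.043, adjusted p = 0.000225, and the difference in response was 1.81 ± 0.064, adjusted p = 1.76e-20. VLDLR, the very-low-density lipoprotein receptor, rose in OCI-AML3 (1.21 ± 0.062, adjusted p = 2.44e-17) and had a log2 fold change of 0.23 ± 0.058 in Molm-14. Its difference, 0.97 ± 0.085, stood at the edge of the threshold and passed it with library totals (1.05), without Molm-14 DMSO replicate 2 (1.00) and without OCI-AML3 DMSO replicate 1 (1.01). STC2, the secreted glycoprotein stanniocalcin-2, fell in OCI-AML3 (-3.41 ± 0.18) and in Molm-14 (-2.88 ± 0.17). With 25 reads summed over the OCI-AML3 libraries at 24 h, its difference of -0.53 ± 0.25 was not called and turned sign with a pseudocount of 1 CPM (0.52). VLDLR overlaps VLDLR-AS1 on the opposite strand.

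**Figure D3:**
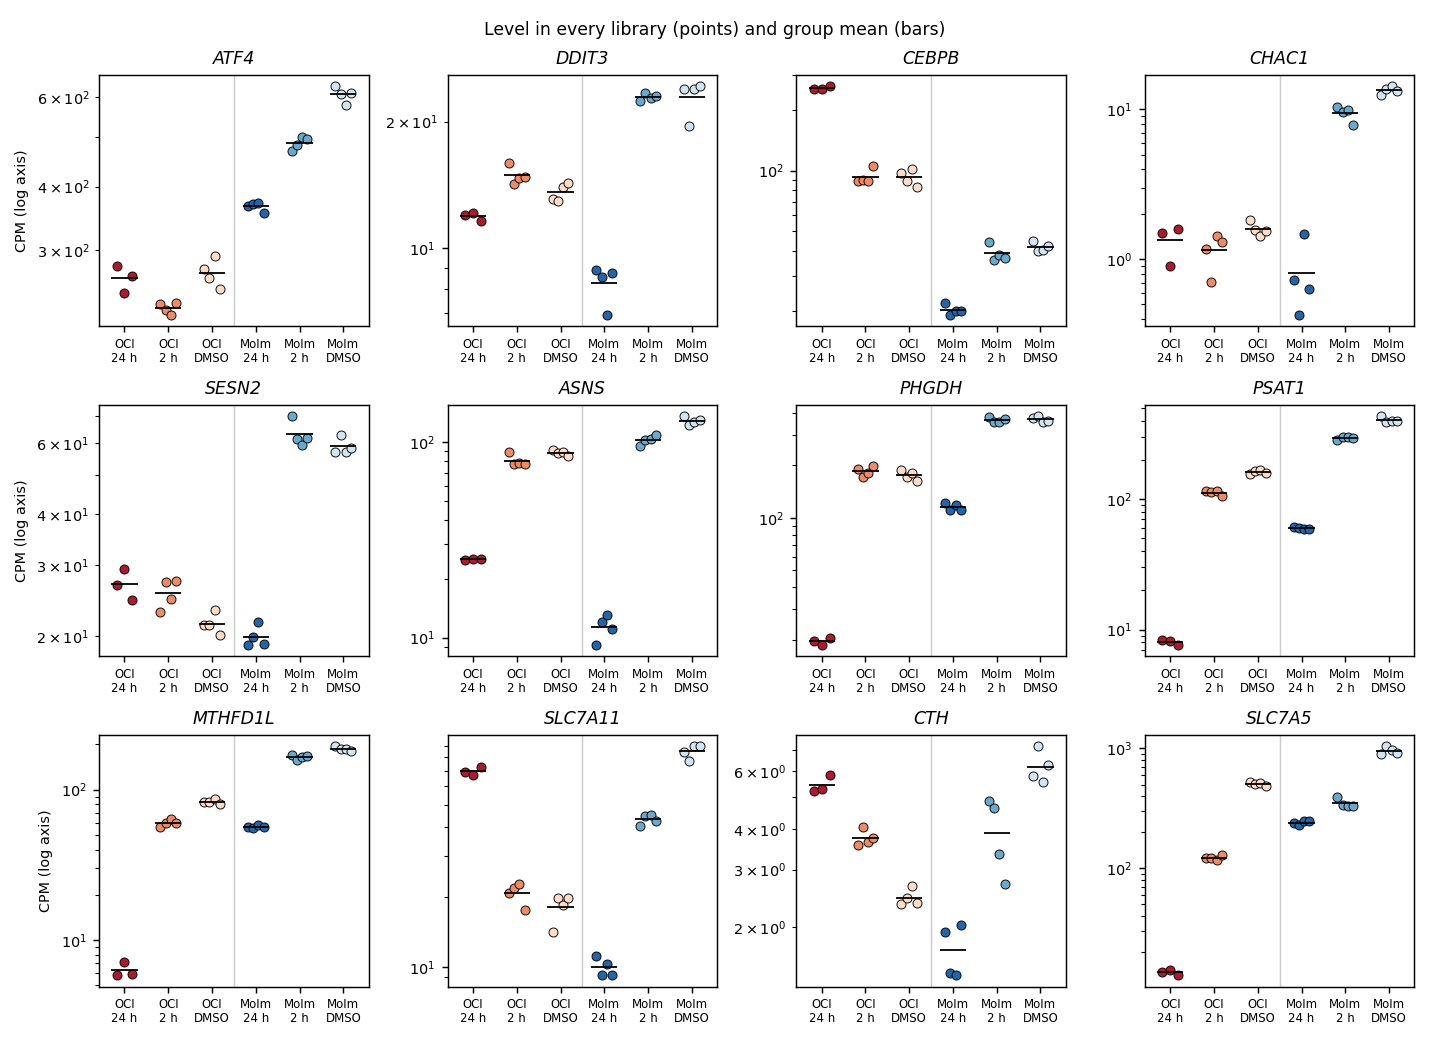
Level of 12 members in every library (points, CPM on log axes that differ by gene) with the group mean as a bar, in the order 24 h, 2 h and DMSO of RMC-7977 treatment, OCI-AML3 on the left and Molm-14 on the right of each panel. The group means of DDIT3, CHAC1, SESN2, ASNS, SLC7A11 and CTH stand in the other line order at 24 h than in DMSO. For SLC7A11 and CTH the order was called at both points, and CHAC1 libraries of the lines overlap at 24 h. PHGDH, PSAT1, MTHFD1L and SLC7A5 reach lower levels in OCI-AML3.

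Of the 4 genes of asparagine and serine synthesis, 3 fell in OCI-AML3 and 4 in Molm-14, and the lines differed in which gene fell further. ASNS, asparagine synthetase (chr7:97852118-97872542, minus strand), fell further in Molm-14. In OCI-AML3, ASNS stood at 24.9, 25.3 and 25.2 CPM at 24 h, 89.5, 77.02, 78.5 and 77.1 CPM at 2 h and 91.8, 88.3, 88.8 and 84.8 CPM in DMSO. In Molm-14, ASNS stood at 9.17, 12.03, 13.1 and 11 CPM at 24 h, 95.8, 103, 104 and 109 CPM at 2 h and 136, 123, 127 and 130.1 CPM in DMSO. Groups at 24 h did not overlap DMSO in either line, and the Molm-14 libraries, higher in DMSO, were the lower ones at 24 h. ASNS fell in OCI-AML3 (-1.81 ± 0.075, adjusted p = 7.50e-20) and in Molm-14 (-3.51 ± 0.069, adjusted p = 4.03e-27). The difference in response was 1.70 ± 0.10, adjusted p = 5.80e-15.

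PHGDH, which diverts a glycolytic intermediate into serine synthesis (chr1:119648411-119744226, plus strand), and PSAT1, the aminotransferase of the next step (chr9:78297143-78330093, plus strand), fell further in OCI-AML3. In OCI-AML3, PHGDH stood at 19.6, 18.7 and 20.5 CPM at 24 h, 190.4, 173, 182 and 198 CPM at 2 h and 189, 172, 181 and 163 CPM in DMSO. In Molm-14, PHGDH stood at 121, 111, 119 and 111 CPM at 24 h, 378, 354, 357 and 368 CPM at 2 h and 375, 383, 357 and 362 CPM in DMSO. At 2 h PHGDH overlapped DMSO in both lines, and at 24 h it lay far below DMSO in both. It fell in OCI-AML3 (-3.16 ± 0.052, adjusted p = 7.85e-30) and in Molm-14 (-1.68 ± 0.048, adjusted p = 2.64e-23), with a difference of -1.48 ± 0.070, adjusted p = 2.58e-17. In OCI-AML3, PSAT1 stood at 8.36, 8.25 and 7.63 CPM at 24 h, 116, 113, 115 and 107 CPM at 2 h and 156, 164, 166 and 159 CPM in DMSO. In Molm-14, PSAT1 stood at 61.2, 60.5, 58.7 and 59.2 CPM at 24 h, 287, 298, 299 and 294 CPM at 2 h and 433, 391, 397 and 398 CPM in DMSO. PSAT1 libraries were already below DMSO at 2 h, without overlap, in both lines. PSAT1 fell in OCI-AML3 (-4.30 ± 0.044, adjusted p = 2.94e-34) and in Molm-14 (-2.75 ± 0.041, adjusted p = 3.26e-30), with a difference of -1.55 ± 0.060, adjusted p = 1.72e-19. PSPH, the phosphatase that completes serine synthesis, stood at -0.63 ± 0.066, adjusted p = 5.18e-10 in OCI-AML3, short of the threshold on size, and fell in Molm-14 (-1.19 ± 0.061, adjusted p = 4.22e-17). Its difference, 0.56 ± 0.090, was below the threshold on size and opposite in sign to those of PHGDH and PSAT1.

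In the 6 genes that pass serine carbon into folate, 5 fell in each line. MTHFD1L, the mitochondrial formyl-tetrahydrofolate synthetase (chr6:150865549-151101887, plus strand), parted most. In OCI-AML3, MTHFD1L stood at 5.85, 7.199 and 5.92 CPM at 24 h, 56.5, 60.4, 64.1 and 60.1 CPM at 2 h and 82.4, 82.98, 86.05 and 79.7 CPM in DMSO. In Molm-14, MTHFD1L stood at 56.4, 55.9, 57.9 and 56.1 CPM at 24 h, 170.3, 158, 166 and 167 CPM at 2 h and 194, 186, 186 and 180.4 CPM in DMSO. Libraries at 24 h lay far below DMSO in both lines, and the OCI-AML3 libraries reached the lowest levels. MTHFD1L fell in OCI-AML3 (-3.69 ± 0.056, adjusted p = 1.40e-30) and in Molm-14 (-1.72 ± 0.052, adjusted p = 9.69e-23), with a difference of -1.98 ± 0.076, adjusted p = 1.63e-19. MTHFD2, the mitochondrial dehydrogenase of the same pathway (chr2:74198562-74217565, plus strand), differed in the other direction. In OCI-AML3, MTHFD2 stood at 141, 152 and 154 CPM at 24 h, 166, 164, 164 and 155 CPM at 2 h and 226, 234, 241 and 236 CPM in DMSO. In Molm-14, MTHFD2 stood at 155, 151, 158 and 161 CPM at 24 h, 329, 326, 335 and 326 CPM at 2 h and 436, 396, 419 and 427 CPM in DMSO. Libraries at 24 h lay below DMSO in both lines. The lines were apart in DMSO and overlapped at 24 h. For MTHFD2 the log2 fold change was -0.65 ± 0.041, adjusted p = 3.53e-15 in OCI-AML3, where it was not called, and it fell in Molm-14 (-1.42 ± 0.038, adjusted p = 5.80e-24). The difference of 0.77 ± 0.056, adjusted p = 5.51e-13 was below the threshold on size.

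SHMT1, the cytosolic serine hydroxymethyltransferase, fell in OCI-AML3 (-1.24 ± 0.064, adjusted p = 2.52e-17) and stood at 36.1 to 41.4 CPM at 24 h against 39.01 to 44.5 CPM in DMSO in Molm-14, with overlap. Its difference in response was -1.16 ± 0.088, adjusted p = 1.26e-12. SHMT2, the mitochondrial form, fell in OCI-AML3 (-1.41 ± 0.046) and in Molm-14 (-1.08 ± 0.043). MTHFD1, the cytosolic enzyme with 3 activities on folate, fell in OCI-AML3 (-2.14 ± 0.040) and in Molm-14 (-1.09 ± 0.037), with a difference of -1.04 ± 0.054, adjusted p = 1.85e-16. With library totals the calls in Molm-14 ended for SHMT2 (-0.98) and MTHFD1 (-0.99), and so did the difference of MTHFD1 (-0.97). ALDH1L2, which oxidises formyl-tetrahydrofolate in mitochondria, fell in OCI-AML3 (-2.26 ± 0.066) and in Molm-14 (-1.60 ± 0.061). SHMT1, SHMT2, MTHFD1 and MTHFD2 each overlap an exon of a gene on the opposite strand (SMCR8, NDUFA4L2, ZBTB25 and SLC4A5).

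All 4 genes of proline synthesis and transamination fell in both lines. ALDH18A1, which starts proline synthesis from glutamate, fell in OCI-AML3 (-1.72 ± 0.056) and in Molm-14 (-1.35 ± 0.052). PYCR1, the mitochondrial reductase that ends it, was the one gene of the group with a called difference (-1.36 ± 0.10, adjusted p = 2.22e-12), at -2.71 ± 0.076 in OCI-AML3 and -1.35 ± 0.071 in Molm-14. Its levels at 24 h were 13.7, 11.5 and 10.3 CPM in OCI-AML3 and 59.7, 55.5, 62.3 and 54.1 CPM in Molm-14. GPT2, the mitochondrial alanine aminotransferase, fell in OCI-AML3 (-2.67 ± 0.055) and in Molm-14 (-2.55 ± 0.051), and the interval of the difference was -0.27 to 0.031. GOT1, the cytosolic aspartate aminotransferase, fell in OCI-AML3 (-1.28 ± 0.088) and in Molm-14 (-1.47 ± 0.082), with an interval of -0.061 to 0.43 for the difference.

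Transsulfuration makes cysteine from homocysteine in 2 steps, and its 2 genes parted from each other. CBS, the first enzyme, fell in OCI-AML3 (-2.69 ± 0.067) and in Molm-14 (-2.44 ± 0.062), with a difference of -0.25 ± 0.091, adjusted p = 0.0187, under the threshold on size. CBS has a near-identical annotated copy, CBSL, so its counting is uncertain. CTH, the second enzyme, which releases cysteine (chr1:70411218-70439851, plus strand), moved in opposite directions. In OCI-AML3, CTH stood at 5.24, 5.29 and 5.86 CPM at 24 h, 3.56, 4.05, 3.65 and 3.74 CPM at 2 h and 2.35, 2.45, 2.68 and 2.37 CPM in DMSO. In Molm-14, CTH stood at 1.93, 1.44, 1.43 and 2.02 CPM at 24 h, 4.89, 4.63, 3.35 and 2.702 CPM at 2 h and 5.82, 7.16, 5.57 and 6.27 CPM in DMSO. All OCI-AML3 libraries at 24 h lay above DMSO, all Molm-14 libraries at 24 h lay below DMSO, and the lines changed places. CTH rose in OCI-AML3 (1.12 ± 0.17, adjusted p = 4.67e-07) and fell in Molm-14 (-1.81 ± 0.15, adjusted p = 7.07e-12), with a difference of 2.93 ± 0.23, adjusted p = 2.50e-12. The rise in OCI-AML3 lost its call with a pseudocount of 1 CPM (0.90).

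SLC7A11, the cystine importer xCT (chr4:138164097-138242349, minus strand), had the largest difference in response of the 38 genes. In OCI-AML3, SLC7A11 stood at 69.3, 67.3 and 72.9 CPM at 24 h, 20.7, 21.96, 22.8 and 17.6 CPM at 2 h and 14.2, 19.8, 18.4 and 19.8 CPM in DMSO. In Molm-14, SLC7A11 stood at 11.1, 9.21, 10.3 and 9.25 CPM at 24 h, 40.6, 44.7, 45.4 and 42.5 CPM at 2 h and 84.05, 77.1, 89.2 and 89.3 CPM in DMSO. The Molm-14 libraries exceeded those of OCI-AML3 in DMSO and at 2 h, and every OCI-AML3 library at 24 h exceeded every Molm-14 library at 24 h. SLC7A11 rose in OCI-AML3 (1.96 ± 0.094, adjusted p = 6.14e-18) and fell in Molm-14 (-3.08 ± 0.087, adjusted p = 4.76e-23). The 2 responses differed by 5.04 ± 0.13, adjusted p = 1.95e-23.

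SLC7A5, the importer of leucine and other large neutral amino acids (chr16:87830023-87869488, minus strand), fell furthest in OCI-AML3 among the members. In OCI-AML3, SLC7A5 stood at 13.7, 14.2 and 12.8 CPM at 24 h, 122, 122, 117 and 128 CPM at 2 h and 522, 508, 510.0 and 483 CPM in DMSO. In Molm-14, SLC7A5 stood at 238, 229, 248 and 246 CPM at 24 h, 393, 337, 332 and 334 CPM at 2 h and 904, 1041, 967 and 922 CPM in DMSO. No group overlapped another within a line, and the levels were lower at 2 h than in DMSO and lower again at 24 h. SLC7A5 fell in OCI-AML3 (-5.21 ± 0.054, adjusted p = 2.94e-34) and in Molm-14 (-1.99 ± 0.050, adjusted p = 1.26e-24), with a difference of -3.21 ± 0.074, adjusted p = 9.55e-25. SLC3A2, the heavy chain that pairs with SLC7A5 and with SLC7A11, fell in OCI-AML3 (-1.63 ± 0.047) and in Molm-14 (-1.76 ± 0.044), and the interval of the difference was 0.003 to 0.27. SLC7A1, an importer of arginine and lysine, fell in OCI-AML3 (-2.38 ± 0.057) and in Molm-14 (-2.10 ± 0.053). SLC6A9, a glycine transporter, fell in OCI-AML3 (-3.06 ± 0.28) and in Molm-14 (-3.53 ± 0.26), with 8 reads left in 3 OCI-AML3 libraries. Its difference of 0.47 ± 0.39 turned sign with voom (-0.24) and passed the threshold with a pseudocount of 1 CPM (1.19) and without OCI-AML3 24 h replicate 2 (1.02). SLC6A9 overlaps CCDC24 on the opposite strand. XPOT, which exports tRNA from the nucleus, fell in OCI-AML3 (-1.60 ± 0.050) and in Molm-14 (-1.24 ± 0.046).

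At 2 h few members had passed the threshold. In OCI-AML3, TRIB3, STC2, SLC7A5 and SLC7A1 fell, 4 of 38 against 3.35% of all genes, and none rose, against 3.23% of all genes (6.58% in either direction). In Molm-14, STC2 and SLC7A5 fell, 2 of 38 against 2.98% of all genes, and none rose, against 4.3% of all genes (7.29% in either direction). SLC7A5 fell at 2 h in OCI-AML3 (-2.05 ± 0.050, adjusted p = 4.58e-24) and in Molm-14 (-1.46 ± 0.050, adjusted p = 7.19e-21). STC2 stood at 1.34, 1.58, 1.33 and 2.005 CPM in OCI-AML3 at 2 h, against 5.21, 5.18, 5.71 and 5.81 CPM in DMSO, and fell by 1.76 on the log2 scale (adjusted p = 2.42e-10). In Molm-14, STC2 stood at 12.7, 10.9, 11.8 and 11.8 CPM at 2 h, against 37.6, 34.7, 41.5 and 38.5 CPM in DMSO, and fell by 1.68 (adjusted p = 5.62e-10). TRIB3 fell in OCI-AML3 (-1.49 ± 0.063, adjusted p = 1.84e-18) and had a log2 fold change of -0.54 ± 0.063, adjusted p = 1.16e-08 in Molm-14. The difference of TRIB3 at 2 h, -0.95 ± 0.089, was not called, and reached -1.01 without OCI-AML3 DMSO replicate 4. SLC7A1 fell in OCI-AML3 (-1.10 ± 0.053, adjusted p = 4.04e-17) and had a log2 fold change of -0.67 ± 0.053 in Molm-14.

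CTH and SLC7A11 differed in response between the lines at 2 h as well. They were the 2 members with a called difference in response at that time, both higher in OCI-AML3, where 2.12% of all genes were higher and 3.52% lower (5.64% in either direction). CTH had a log2 fold change of 0.59 ± 0.15 in OCI-AML3 and -0.69 ± 0.15 in Molm-14, with a difference of 1.278 ± 0.22, adjusted p = 2.55e-05. SLC7A11 had a log2 fold change of 0.21 ± 0.087 in OCI-AML3 and -0.97 ± 0.087 in Molm-14, with a difference of 1.18 ± 0.12, adjusted p = 6.67e-09. The SLC7A11 change in Molm-14 passed the threshold without Molm-14 DMSO replicate 2 (-1.01). PPP1R15A stood at a log2 fold change of 0.70 ± 0.064 in OCI-AML3 and 0.62 ± 0.064 in Molm-14 at 2 h, and the 95% interval of the difference was -0.10 to 0.27. DDIT4 had a log2 fold change of 0.41 ± 0.051 in OCI-AML3 and -0.49 ± 0.051 in Molm-14, with a difference of 0.90 ± 0.073. ATF4 had a log2 fold change of -0.23 ± 0.042 in OCI-AML3 and -0.32 ± 0.042 in Molm-14. The 2 h and 24 h values of a line rest on the same DMSO libraries and are given side by side only.

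The lines also started from different levels. In DMSO, 23 of 38 members were lower in OCI-AML3 than in Molm-14 and 2 were higher, where 12.2% of all genes were lower and 17.9% higher (30.2% in either direction). The higher 2 were CBS (1.94 ± 0.062, adjusted p = 1.19e-22) and CEBPB (1.15 ± 0.066, adjusted p = 4.21e-16). Among the lower were ATF4 (-1.17 ± 0.042, adjusted p = 3.27e-21), GOT1 (-3.99 ± 0.082) and DDIT4 (-4.92 ± 0.051). At 24 h, 21 members were lower in OCI-AML3 than in Molm-14 and 6 were higher, where 16.1% of all genes were lower and 19.7% higher (35.7% in either direction). The 6 higher members were CEBPB (3.66), SLC7A11 (2.80), JDP2 (1.92), CBS (1.69), CTH (1.64) and ASNS (1.16). CTH and SLC7A11 were called lower in OCI-AML3 in DMSO and higher at 24 h. PPP1R15A (0.805 ± 0.069), CHAC1 (0.73 ± 0.25), SESN2 (0.42 ± 0.073) and DDIT3 (0.53 ± 0.084) stood above Molm-14 at 24 h by less than the threshold. For CHAC1 the value passed it without Molm-14 24 h replicate 3 (1.03). ATF4 differed by -0.47 ± 0.046 at 24 h. The absolute gap between the lines was wider at 24 h than in DMSO for 22 members and narrower for 16. Its median was 1.52 log2 units at 24 h and 1.18 in DMSO, beside 0.68 and 0.55 over all genes. The share of all genes with a wider gap was not counted, so these counts are not read as a trait of the members. They include INHBE and SLC6A9, which had few reads in OCI-AML3.

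Further genes of the pathway were counted at 24 h in 7 lists, to be read beside the shares of all genes called at 24 h given above. Upstream of ATF4, none of 16 genes for eIF2 kinases, eIF2 and eIF2B subunits and regulators rose. Lower were 4 in OCI-AML3 (EIF2S1, EIF2S2, EIF2B1 and EIF2B3) and 3 in Molm-14 (EIF2S1, EIF2S2 and EIF2B3), all of them subunits. No kinase or regulator of the list was called in either line, and none of the 16 genes was called in the difference in response. Their median log2 fold change was -0.37 in OCI-AML3 and -0.40 in Molm-14. EIF2S1, which encodes the alpha subunit of eIF2, fell in OCI-AML3 (-2.08 ± 0.048) and in Molm-14 (-1.12 ± 0.045). EIF2B1, an eIF2B subunit, fell in OCI-AML3 (-1.03 ± 0.049) and had a log2 fold change of -0.68 ± 0.046 in Molm-14. IMPACT, an inhibitor of the kinase GCN2, had a log2 fold change of 0.12 ± 0.063 in OCI-AML3 and -0.40 ± 0.058 in Molm-14. Of 20 cytosolic aminoacyl-tRNA synthetases, which charge tRNAs with amino acids, 13 fell in OCI-AML3 and 12 in Molm-14. In the difference, 1 of the synthetases was called, VARS1 for valine (-1.095), which is named after its value was seen. The median of the 20 was -1.18 in OCI-AML3 and -1.08 in Molm-14. WARS1, for tryptophan, had a log2 fold change of -0.37 ± 0.037 in OCI-AML3 and fell in Molm-14 (-1.33 ± 0.034). FARSA and FARSB, the subunits for phenylalanine, fell in OCI-AML3 (-2.03 ± 0.053 and -2.27 ± 0.045) and in Molm-14 (-1.08 ± 0.049 and -1.27 ± 0.042). The differences of WARS1 (0.96), FARSA (-0.949) and FARSB (-0.999) were under the threshold on size.

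Other amino acid transporters were mixed: of 12 measured, 4 fell and 2 rose in OCI-AML3, and 2 fell and 1 rose in Molm-14. The difference in response was called for 5 of them, 4 lower and 1 higher. Their median log2 fold change was -0.60 in OCI-AML3 and -0.48 in Molm-14. SLC38A5, a glutamine and glycine carrier, fell in OCI-AML3 (-3.10 ± 0.069) and in Molm-14 (-1.43 ± 0.064), with a difference of -1.66 ± 0.094 (adjusted p = 1.41e-15). SLC7A6, a relative of SLC7A5 that also pairs with SLC3A2, had a log2 fold change of -0.97 ± 0.060 in OCI-AML3 and 0.46 ± 0.056 in Molm-14, with a difference of -1.44 ± 0.082 (adjusted p = 1.73e-15). SLC38A9, the lysosomal arginine sensor, rose in OCI-AML3 (1.37 ± 0.077) and had a log2 fold change of 0.14 ± 0.072 in Molm-14. Of 16 further folate and methionine cycle genes, 10 fell and 2 rose in OCI-AML3, and 5 fell and 2 rose in Molm-14, with a median of -1.24 in OCI-AML3 and -0.78 in Molm-14. TYMS, thymidylate synthase, fell in OCI-AML3 (-3.33 ± 0.050) and in Molm-14 (-1.11 ± 0.047), with a difference of -2.23 ± 0.069 (adjusted p = 8.68e-22). GCSH, a subunit of the glycine cleavage system, fell in OCI-AML3 (-2.84 ± 0.069) and in Molm-14 (-1.56 ± 0.064). TYMS and GCSH were the 2 of these 16 genes called lower in the difference in response, and none was called higher.

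Of 12 other amino acid enzymes, 3 fell and 2 rose in OCI-AML3, and 1 fell and 2 rose in Molm-14, with a median of -0.71 in OCI-AML3 and -0.20 in Molm-14. In the difference in response, 1 enzyme was called higher and 1 lower. BCAT1, the cytosolic branched-chain aminotransferase, fell in OCI-AML3 (-3.86 ± 0.063) and in Molm-14 (-1.37 ± 0.059), with a difference of -2.49 ± 0.087 (adjusted p = 1.38e-20). GLUL, glutamine synthetase, had a log2 fold change of 0.82 ± 0.038 in OCI-AML3 and 0.32 ± 0.035 in Molm-14. For GLUD1, glutamate dehydrogenase, the values were -0.77 ± 0.038 in OCI-AML3 and -0.28 ± 0.035 in Molm-14. Of 7 genes of glutathione synthesis and of glutathione and thioredoxin reduction, 1 fell in OCI-AML3 and 2 fell in Molm-14, and none was called higher in either line. Their median was -0.63 in OCI-AML3 and -0.53 in Molm-14, and 1 (GSS) was called lower in the difference and none higher. GSS, glutathione synthetase, fell in OCI-AML3 (-1.35 ± 0.052) and had a log2 fold change of -0.25 ± 0.048 in Molm-14. GSR, glutathione reductase, had a log2 fold change of -0.28 ± 0.052 in OCI-AML3 and fell in Molm-14 (-1.10 ± 0.048). TXNRD1, thioredoxin reductase, had a log2 fold change of -0.66 ± 0.047 in OCI-AML3 and fell in Molm-14 (-1.24 ± 0.044). In the neighbouring branches of the unfolded protein response, 9 of 17 genes for sensors, factors, chaperones and degradation fell and 1 rose in OCI-AML3, and 7 fell in Molm-14, with a median of -1.22 in OCI-AML3 and -0.78 in Molm-14. The gene that rose was ERN1, which encodes the sensor IRE1, and the transcription factor XBP1 was among those that fell in both lines; both are named after their values were seen. MANF, a secreted stress protein, fell in OCI-AML3 (-3.03 ± 0.061) and in Molm-14 (-1.57 ± 0.057). HYOU1 and CALR, chaperones of the endoplasmic reticulum, fell in OCI-AML3 (-2.65 ± 0.049 and -2.32 ± 0.041) and in Molm-14 (-1.47 ± 0.045 and -1.16 ± 0.038). Of the 17 genes, 5 were called lower in the difference in response and 1 higher (ERN1, 1.80). Over all genes, 9.75% were lower and 8.09% higher.

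**Figure D4:**
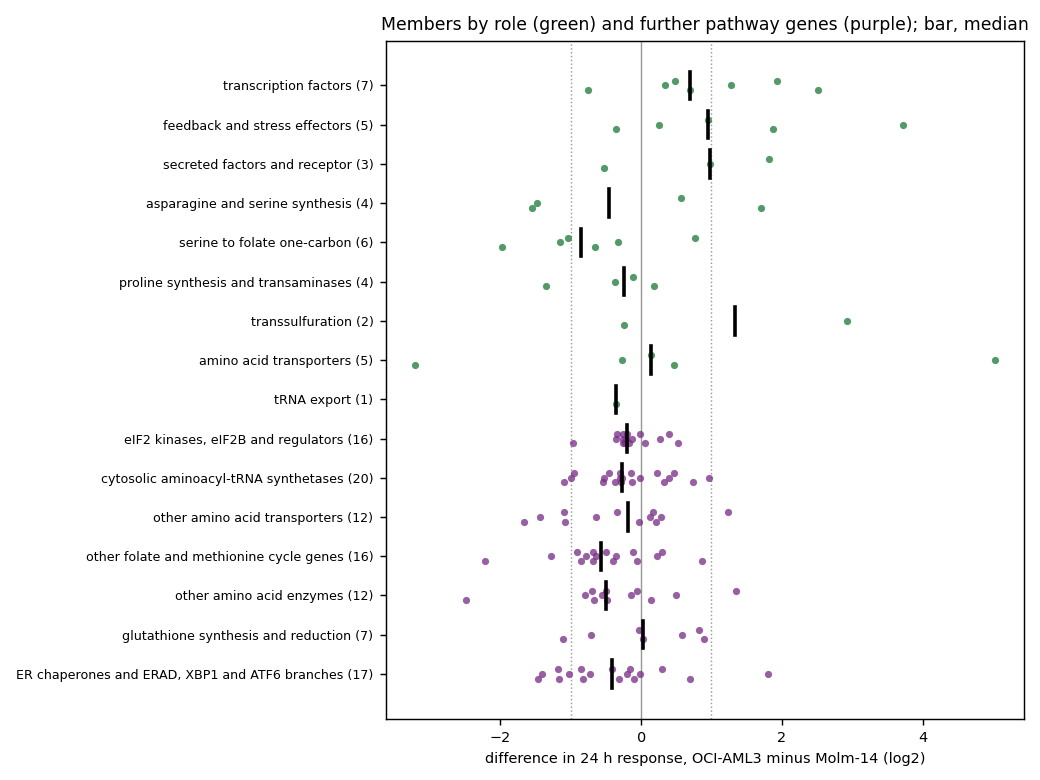
Difference in 24 h response, OCI-AML3 minus Molm-14 in log2 units (x axis), for each member by role (green) and each gene of 7 further lists (purple), with bars at the medians, the number plotted in brackets and dotted lines at the threshold of 1; INHBE is left out. Medians of the 7 further lists lie between -0.58 and 0.025, while SLC7A11 at 5.04 and SLC7A5 at -3.21 mark the ends of the amino acid transporters.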

How the data were processed

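Poly(A) RNA of 2 leukaemia lines was sequenced, with 24 labelled libraries in 6 groups, of which 23 were in the table used here. The authors deposited log2 CPM (read counts scaled to a library size) for 13033 genes. Linear CPM summed over these genes was unequal between libraries, at -0.134 to 0.077 log2 units from the mean. It was lowest in OCI-AML3 at 24 h (-0.134 to -0.114), so the values need not be scaled by library totals alone. Per the submitters' processing notes, limma 3.38.3, edgeR 3.24.3, RSEM 1.3.3, STAR 2.7.8a, Trimmomatic 0.36 and MultiQC 1.28 were used with hg38. No source used here gives the strand setting or how low genes were removed. The deposited log2 values are limited from below at -3.26 (0.105 CPM), and the spacing of low values gave a prior of 1.96 reads and effective library sizes with a median of 18.4 M reads. Linear CPM and summed reads have that prior removed. Of values up to 20 reads, 75.4% to 82.8% per library lay within 0.05 of a whole read, so summed reads are approximate, since RSEM estimates need not be whole.

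Since the unit was log2 CPM, limma 3.58.1 (R 4.3.3) was used in place of a count test, in 1 fit of 6 group means with trend and robust options. P-values are two-sided and Benjamini-Hochberg adjusted over 13033 genes. The fit was tested on simulated data. The 39 symbols and the lists were chosen with earlier results of these data known. Values in every library are given for the 12 members with the largest called difference in 24 h response, members called in opposite directions, and 10 members named outright. From each further list, the 3 genes with the smallest adjusted p in that difference, with at least 5 CPM in a group, are named. Of these, 1 is not reported here. Alternatives were a pseudocount of 1 CPM, a filter at 1 CPM, library totals, median-of-ratios scaling, no trend, voom on recovered reads, a replicate block and leaving out each library. Gene positions are from GENCODE 29 (GRCh38), sequences from RefSeq (GRCh38.p14). There were 0 value columns without a sample. All libraries carry the same batch label.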

Additional observations from a re-analysis of the deposited data

Results flagged for a closer look

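In 11 of 190 groups of 4 libraries, the highest or lowest library of a member stood apart from the other 3 by more than the 95% limit for such a gap. Chance alone gives about 1 such library in 20 groups. DDIT3 stood apart in Molm-14 at 24 h, at 6.95 CPM in replicate 3 against 8.53 to 8.88 CPM in the others. It also stood apart in Molm-14 DMSO, at 19.6 CPM in replicate 2 against 23.9 to 24.3 CPM. Replicate 4 of OCI-AML3 at 2 h was high for CEBPB (105 CPM, others 88.4 to 89.4 CPM) and for JDP2 (29.9 CPM, others 26.1 to 26.7 CPM). For INHBE in OCI-AML3, 0.0556 CPM in replicate 4 at 2 h and 0.231 CPM in replicate 2 of DMSO stood beside libraries listed at 0. ASNS in OCI-AML3 at 2 h was 89.5 CPM in replicate 1 and 77.0 to 78.5 CPM in the others. In Molm-14 at 24 h, SHMT2 was 332 CPM in replicate 3 (others 310.2 to 312 CPM), GPT2 was 23.6 CPM in replicate 2 (others 27.0 to 27.4 CPM) and GOT1 was 30.0 CPM in replicate 4 (others 34.9 to 36.0 CPM). SLC7A5 in Molm-14 at 2 h was 393 CPM in replicate 1 and 332 to 337 CPM in the others.

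A difference in response between the lines was called by limma for 17 members at 24 h. Those higher in OCI-AML3 were SLC7A11 (5.04), CHAC1 (3.73), INHBE (3.66), CTH (2.93), CEBPB (2.52), JDP2 (1.94), SESN2 (1.87), VEGFA (1.81), ASNS (1.70) and DDIT3 (1.27), in log2 units of OCI-AML3 minus Molm-14. The INHBE value sets a fall in Molm-14 against OCI-AML3 groups of 5 reads at 24 h and 5 in DMSO, where no response could be read. Those lower were SLC7A5 (-3.21), MTHFD1L (-1.98), PSAT1 (-1.55), PHGDH (-1.48), PYCR1 (-1.36), SHMT1 (-1.16) and MTHFD1 (-1.04). At 2 h, CTH (1.278) and SLC7A11 (1.18) were called.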

How the results depend on the processing

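Of 211 member values, 190 kept their direction and their side of the threshold under all 30 alternatives, 23 of which left out 1 library each. With a pseudocount of 1 CPM, the calls ended for ATF3 (-0.66) and CTH (0.90) in OCI-AML3 at 24 h and for SLC6A9 between the lines at 24 h (-0.48), the difference of SLC6A9 was called (1.19), and the sign of the STC2 difference turned at 24 h (0.52) and at 2 h (0.27). The same pseudocount gave 205 genes called higher at 2 h in OCI-AML3 (421 without it), 362 in Molm-14 (561 without it) and 134 for the difference in response (276 without it). With library totals, which moved the median of all genes in OCI-AML3 at 24 h to 0.18, the calls ended in Molm-14 for CEBPB (-0.94), SHMT2 (-0.98) and MTHFD1 (-0.99) and for the MTHFD1 difference (-0.97). PPP1R15A (1.03) and VLDLR (1.05) then passed in the difference, and the sign turned for SHMT1 in Molm-14 (0.019) and ATF4 in OCI-AML3 (0.14). Members lower in Molm-14 at 24 h then numbered 27, and the difference was called for 12 higher and 6 lower. Median-of-ratios scaling turned ATF4 in OCI-AML3 (0.038), ended the CEBPB call in Molm-14 (-0.97) and brought calls between the lines in DMSO for ATF5 (-1.05) and PYCR1 (-1.003). voom turned the SLC6A9 difference (-0.24). Leaving out 1 library gave 22 members lower in OCI-AML3 and 30 in Molm-14 at 24 h each time, 10 to 11 higher and 7 lower in the difference, and 0 to 1 lower in the difference at 2 h (TRIB3, without OCI-AML3 DMSO replicate 4). The sign of an uncalled value turned for ATF4 in OCI-AML3 (-0.075 to 0.013; 0.002 without DMSO replicate 3 and 0.013 without 24 h replicate 2), for DDIT4 in OCI-AML3 (-0.021 without DMSO replicate 2 to 0.066, with -0.015 without 24 h replicate 4) and for JDP2 between the lines in DMSO (-0.044 to 0.026, with 0.001 without Molm-14 DMSO replicate 2). The causes were not tested. Libraries with the same replicate number showed little shared deviation: over 15 pairs the deviations correlated at -0.18 to 0.12, with 1 over 0.1. Whether the numbers mark cultures handled together cannot be told from these values. With the replicate block, the members called were 6 higher and 22 lower in OCI-AML3 at 24 h, 30 lower in Molm-14, and 10 higher and 7 lower in the difference. Depth limits INHBE and SLC6A9 in OCI-AML3, where 5 and 8 reads remained at 24 h, and ATF3, CHAC1 and STC2, with 25 to 72.9 reads.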
